A study of Mus musculus with 1536 samples.

Results

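The junctions that hold endothelial cells together were followed through 10 genes in single lymphatic endothelial cells (LECs) of the mouse nasopharynx. The genes were chosen by name: *Cdh5*, *Pecam1*, *Cldn5*, *Cldn11*, *Tjp1*, *Ocln*, *F11r*, *Esam*, *Jam2* and *Jam3*. All 10 symbols are among the 23168 genes of the expression matrix, and all adult cells of the matrix were used. No gene was chosen for its value in this matrix by the rule, although the list was drawn up with earlier results of these data known.

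The cells came from the nasopharyngeal mucosa of 30 C57BL/6 mice of both sexes, aged 10 to 12 weeks and kept without treatment as far as the labels say. The tissue was pooled, and cells positive for CD31 and podoplanin (PDPN) were sorted for Smart-seq3, a plate method that makes a full-length cDNA library from each well. Neither the mouse nor the plate of a cell is named, so the adult cells are 1 sample and cells are not replicates. For this reason no p-value was computed, SDs describe the spread over cells, and 95% intervals (exact, Clopper–Pearson) cover counting error only. CD31 is the protein of *Pecam1*, so the sort itself selected for one of the 10 genes.

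Lymphatic endothelium is sealed by adherens junctions, built around VE-cadherin, and by tight junctions, built from claudins, occludin and the junctional adhesion molecules of the immunoglobulin family. In initial lymphatics these proteins are gathered into separate button-like junctions with flaps between them through which fluid enters, whereas collecting lymphatics have continuous zipper-like junctions. The scaffold protein ZO-1 ties the strands to actin.

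The deposited scale was kept, on which a value is ln(1 + x) for x reads per 10000 reads of the cell. Total reads per cell ran from 7433 to 3524358 (median 350746), and a shallow cell can miss a gene that is there. Several shares of cells with a read are therefore also given after thinning each cell to 20000 reads, with 51 shallower cells left out. The LEC genes *Prox1*, *Flt4*, *Mmrn1* and *Pdpn* were found in 97.7%, 99.8%, 100% and 95.2% of the cells. Genes of immune cells and fibroblasts were at a median of 0 in sum, but 3 wells held at least 3 such markers (2 wells with immune markers and 1 with fibroblast markers). *Xist*, which is transcribed from an inactive X chromosome, was read beside a Y chromosome gene in 52 wells, and no doublet caller was run. Leaving out either kind of well moved no member across the threshold used below.

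*Cldn5*, *Cldn11* and *Ocln* encode the 3 strand-forming proteins of the list, and they span its whole range, from a gene read in every cell to one read in almost none. To show the start of these genes, the 250 bases before each transcription start are given 5′ to 3′ (RefSeq, GRCm38.p6), which was available for 5 of the 10 members. *Cldn5* lies at chr16:18776847-18778262 on the plus strand in a single exon, and its stretch is chr16:18776597-18776846. *Cldn11* lies at chr3:31149920-31164324 on the plus strand, with its stretch at chr3:31149670-31149919. *Ocln* lies at chr13:100496507-100552718 on the minus strand, with its stretch at chr13:100552719-100552968. Capitals mark matches to GGAA, the core of ETS factor sites, on either strand.
Cldn5: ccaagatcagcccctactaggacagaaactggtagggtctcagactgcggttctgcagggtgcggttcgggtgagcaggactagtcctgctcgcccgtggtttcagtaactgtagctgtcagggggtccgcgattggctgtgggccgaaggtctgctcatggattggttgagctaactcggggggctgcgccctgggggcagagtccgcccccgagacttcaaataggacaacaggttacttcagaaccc
Cldn11: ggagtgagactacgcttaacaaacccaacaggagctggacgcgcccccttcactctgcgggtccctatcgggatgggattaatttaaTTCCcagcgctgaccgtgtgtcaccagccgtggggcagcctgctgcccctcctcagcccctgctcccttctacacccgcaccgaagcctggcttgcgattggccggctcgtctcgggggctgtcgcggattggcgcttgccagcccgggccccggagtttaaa
Ocln: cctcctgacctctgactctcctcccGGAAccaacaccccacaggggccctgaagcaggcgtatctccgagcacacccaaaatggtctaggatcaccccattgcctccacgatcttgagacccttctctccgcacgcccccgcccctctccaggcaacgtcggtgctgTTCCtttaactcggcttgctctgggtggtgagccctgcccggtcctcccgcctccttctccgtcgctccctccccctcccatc
The 3 stretches held 59.6%, 63.6% and 64% G or C, against a median of 52.4% over the 32851 promoters of the table. GGAA was found 0 times before *Cldn5*, 1 time before *Cldn11* and 2 times before *Ocln*, and at least 1 time in 93.4% of all promoters. The forkhead letters GTAAACA were found on neither strand of the 3 stretches, and in 3.17% of all promoters. The GATA letters AGATAA were likewise not found there, and were in 9.99% of all promoters. The same held for the SOX letters AACAAT, which 9.42% of all promoters held. These are matches of letters in a short window, not measured binding.

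Across all cells the members fell into a set found in nearly every cell, a set found in a part of them and a pair that was almost absent. *Cldn5*, which encodes the main claudin of endothelium, was read in 100% of the cells, with values from 0.0758 to 5.22 and a median of 3.48 (mean 3.35 ± 0.748). *Pecam1* (CD31, chr11:106654217-106750628) was read in 99.6% of the cells, with a median of 2.26. *F11r* (chr1:171437535-171464603), which encodes the adhesion molecule JAM-A, was read in 98.7%, with a median of 2.18. *Cdh5* (chr8:104101625-104144511), which encodes VE-cadherin, was read in 99.2%, with a median of 1.83. These 4 genes were found together in 97.7% of the cells (95% interval 96.5 to 98.6), and in 93% of the cells thinned to 20000 reads.

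*Tjp1* (chr7:65296165-65527781), which encodes ZO-1, was read in 85.2% of the cells, with values up to 2.84 and a median of 0.743. The remaining genes were patchy. *Esam* (chr9:37528078-37538319), an endothelial adhesion molecule at tight junctions, was read in 42.3% of the cells (95% interval 38.9 to 45.7), *Cldn11*, a claudin known from myelin and from lymphatic valves, in 37.3% (34 to 40.7), and *Jam3* (chr9:27097384-27155421), which encodes JAM-C, in 34% (30.8 to 37.3). The median of all 3 was 0, and their highest values were 3.14, 3.53 and 1.91. An antisense gene overlaps 36.2% of the exon bases of *Jam3* on the opposite strand, and whether reads were counted by strand is not given in the sources used here, so reads of the 2 genes cannot be told apart.

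*Jam2* (chr16:84774123-84825928), which encodes JAM-B, a binding partner of JAM-C, was read in 10 cells (1.19%). *Ocln*, which encodes occludin, was read in 6 cells (0.713%, 95% interval 0.262 to 1.54), never above a value of 0.225, and only in cells with about 317000 reads or more. None of those 6 cells held a read of an epithelial marker gene, and 13 other cells did. Only 3 of the 6 epithelial genes listed are in the matrix. With such reads in so few cells, their absence from 6 cells says nothing about the source of the *Ocln* reads. In cells thinned to 20000 reads the shares were 0.885% for *Jam2* and 0.253% for *Ocln*.

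Levels of different genes were set side by side only per kilobase of exon. *Cldn5* came first with a mean of 24.1 ± 14.5 reads per 10000 per kb (SD over cells), rank 12 of the 5380 genes with a length that at least 30% of the cells held. *F11r* followed with 3.29 ± 2.12, then *Pecam1* with 1.46 ± 0.851 and *Cdh5* with 1.42 ± 0.970. The means of *Pecam1* and *Cdh5* were much closer than their spread over cells. With the longest transcript as the length *Pecam1* was at 2.64 and *Cdh5* at 1.5. *Cldn11* (0.574), *Esam* (0.313), *Tjp1* (0.191) and *Jam3* (0.0975) came next, and *Jam2* (0.00172) and *Ocln* (0.000153) last, in the same order with either length. Of neighbours in this order, only *Cldn5* and *F11r* differed by more than the larger SD over cells of the pair. Within single cells, *Cldn5* was the highest member per kb in 96% of them, and *F11r* was the highest in 17 cells (2.02%).

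**Figure D1:**
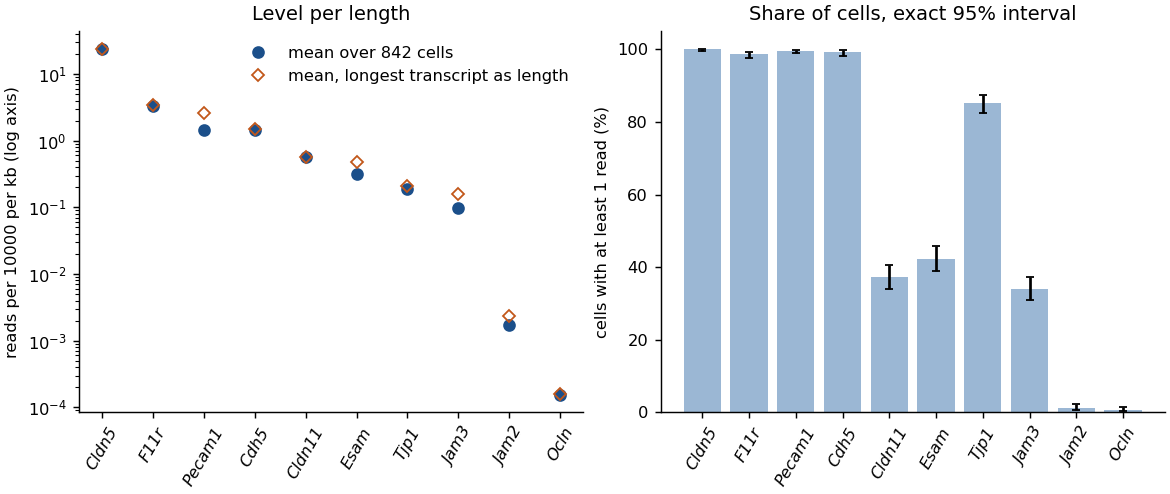
Left, mean level of each member per kilobase of merged exons (filled) or of the longest transcript (open), on a log axis. Right, share of all adult cells with at least 1 read, with exact 95% intervals. *Cldn5* stands at 24.1 reads per 10000 per kb and *Ocln* at 0.000153, and 4 members were read in over 98% of the cells.

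Claudins other than these were scarce. The matrix holds 11 genes named *Cldn* and a number, of which only *Cldn5*, *Cldn11* and *Cldn12* were read in at least 5% of the cells. *Cldn12*, a claudin found in many tissues, was read in 16.5% of the cells (95% interval 14.1 to 19.2) at a mean of 0.0369 reads per 10000 per kb. *Cldn16*, *Cldn20* and *Cldn24* were read in 0 cells, which allows a share of up to 0.437% (exact 95% interval).

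The cells were then split by the genes that mark 2 kinds of LEC in the study. *Stab2* encodes a scavenger receptor of capillary-type LECs, and *Cldn11* was used there for valves. A value above 1, which is 1.72 reads per 10000, put 28.6% of the cells (95% interval 25.6 to 31.8) in the *Stab2*-high group and 15.3% (13 to 17.9) in the *Cldn11*-high group. A further 22 cells (2.61%) had both above 1 and were kept apart, and 450 cells (53.4%) had neither and are called the other cells. Median reads per cell were 386315, 334231, 233791.5 and 355015 in these 4 groups. The threshold cuts through a range and not through a gap, since 24 *Stab2*-high cells had a *Stab2* value of at most 1.2 and 20 of the other cells one above 0.8, and the same counts for *Cldn11* were 23 and 31. A difference was called when the log2 ratio of mean reads per 10000 plus 1 was at least 0.3 either way, in genes read in at least 30% of the cells of either group.

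*Stab2*-high cells had more *Cdh5* and *Jam3* and less *Esam* than the other cells. *Cdh5* in *Stab2*-high cells ran from 0 to 3.56 with a median of 2.08 (mean 1.99 ± 0.572), and in the other cells from 0 to 3.65 with a median of 1.75 (mean 1.67 ± 0.648). This is 7.41 against 5.42 reads per 10000, a log2 ratio of 0.39 (0.40 in thinned cells). The distributions overlapped over their whole range, and the difference of the means was smaller than 1 SD over cells.

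*Esam* showed the largest difference of the 7 members compared here. It was read in 25.7% of *Stab2*-high cells (95% interval 20.3 to 31.7) and in 46.9% of the other cells (42.2 to 51.6). Mean values were 0.139 ± 0.374 against 0.449 ± 0.665, and the highest were 2.31 and 3.14. Reads per 10000 were 0.275 against 1.09, a log2 ratio of −0.71. After thinning, *Esam* was read in 12.4% of *Stab2*-high cells and 37.2% of the other cells, so the shares also differed with reads per cell set equal.

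*Jam3* differed in the other direction. It was read in 47.7% of *Stab2*-high cells (95% interval 41.3 to 54.2) and in 28.4% of the other cells (24.3 to 32.9), with highest values of 1.49 and 1.57. Reads per 10000 were 0.489 against 0.206, a log2 ratio of 0.30, just at the threshold. *Esam* and *Jam3* were at or below about 1 read per 10000 in both groups, so adding 1 holds their ratios near 0. With 0.1 added instead, the log2 ratios were −1.66 for *Esam*, 0.95 for *Jam3* and 0.45 for *Cdh5*.

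The other 4 members found in most cells did not pass the threshold. The log2 ratio was 0.19 for *Tjp1* (1.74 against 1.41 reads per 10000), 0.07 for *Cldn5* (34.4 against 32.7), 0.05 for *F11r* (8.82 against 8.48) and −0.07 for *Pecam1* (8.81 against 9.31). Of 7 members read in enough cells, 2 were higher and 1 lower, where 5.45% of the 5795 genes compared were higher and 4.68% lower. *Jam3* entered only through its share in *Stab2*-high cells and *Esam* only through its share in the other cells, so these counts describe the list and do not test it. The median log2 ratio was 0.07 over the 7 members and 0.02 over all genes. *Cldn11* was below 1 in both groups by construction, and *Jam2* and *Ocln* were read in too few cells. Of 6 genes listed for blood endothelium, some of which LECs also express, at least 3 were read in 38.2% of *Stab2*-high and 22.9% of the other cells, with summed levels up to 30.1 and 36.6 reads per 10000 (medians 8.10 and 7.14). *Plvap* was higher in *Stab2*-high cells (log2 ratio 0.95) and *Emcn* lower (−0.35), while *Flt1*, a receptor of blood endothelium, was read in 2.07% and 2.44% of the cells. *Cd34* had a ratio of 0.19. *Sox17* (0.0993 against 0.0021 reads per 10000) and *Ly6c1* (0.0188 against 0) had more reads in *Stab2*-high cells, but both were read in under 30% of either group. Immediate-early genes, which respond to tissue handling (*Fos*, *Jun*, *Junb*, *Egr1*, *Atf3* and *Ier2*), had a mean value of 2.10 in *Stab2*-high and 2.26 in the other cells. The part of either list in the result was not tested.

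**Figure D2:**
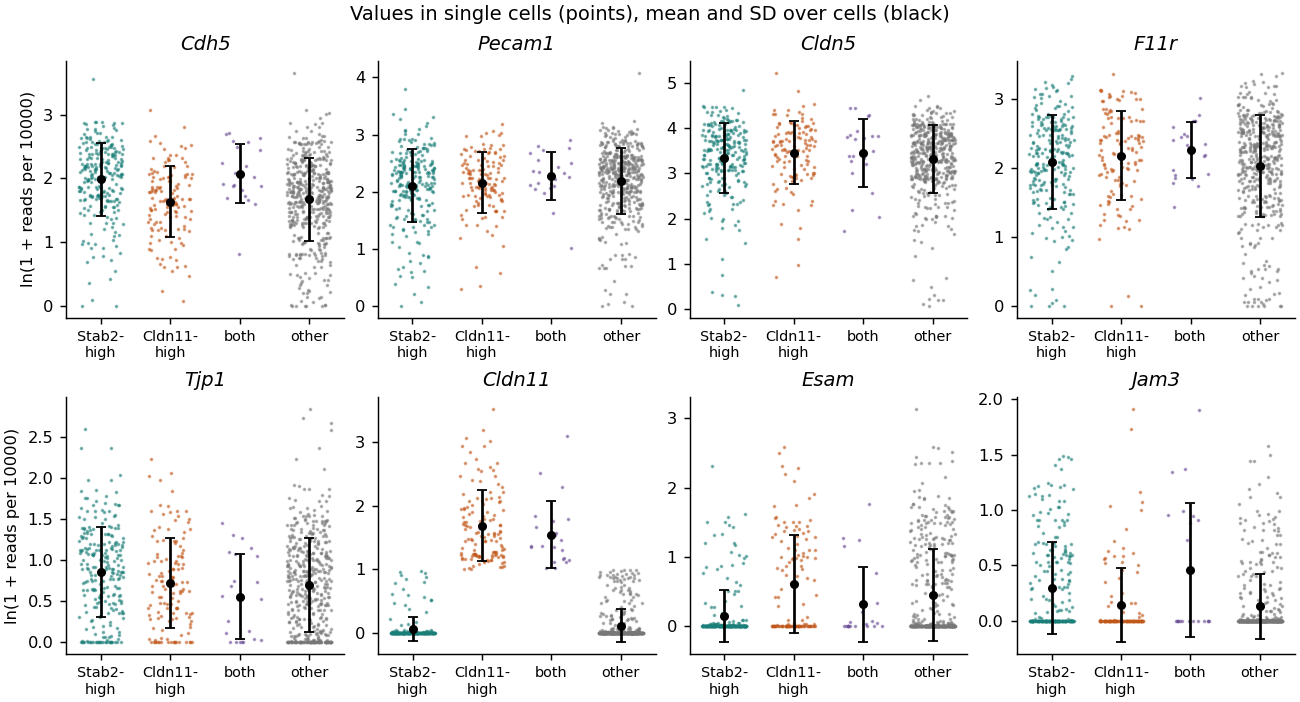
Values of 8 members in single cells (points) on the natural log scale, by group, with the mean and SD over cells in black. *Cldn5*, *Pecam1* and *F11r* overlap widely between the groups, and *Cldn11* was used to form the groups. *Esam* was read in 25.7% of *Stab2*-high and 46.9% of the other cells, so its median is 0 in both.

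The 3 genes followed the level of *Stab2* in different ways. In cells with 0 reads of *Stab2*, a value up to 1, a value from 1 to 2 and a value above 2, *Esam* was read in 49%, 48.7%, 27.4% and 28.1%. The *Esam* share was alike in the 2 lower bins and alike in the 2 upper ones. The edge between them is the group threshold, and bins this wide cannot place where the share falls. The 2 lower bins also hold the *Cldn11*-high cells, in which *Esam* was read in 55.8%. *Jam3* was read in 24.2%, 33.9%, 41% and 52.1%, higher in each bin than in the one before, with neighbouring 95% intervals that overlapped. In thinned cells the *Jam3* shares were 14.5%, 18.2%, 26.4% and 44.1% and the *Esam* shares 39.4%, 37.7%, 15.5% and 12.5%. Mean *Cdh5* was 1.66, 1.67, 1.94 and 2.04, with SDs between 0.551 and 0.637. *Tjp1* was read in 80.8%, 87.5%, 90.6% and 87.7%. Mean *Cldn5* had no such order, at 3.37, 3.29, 3.44 and 3.29.

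**Figure D3:**
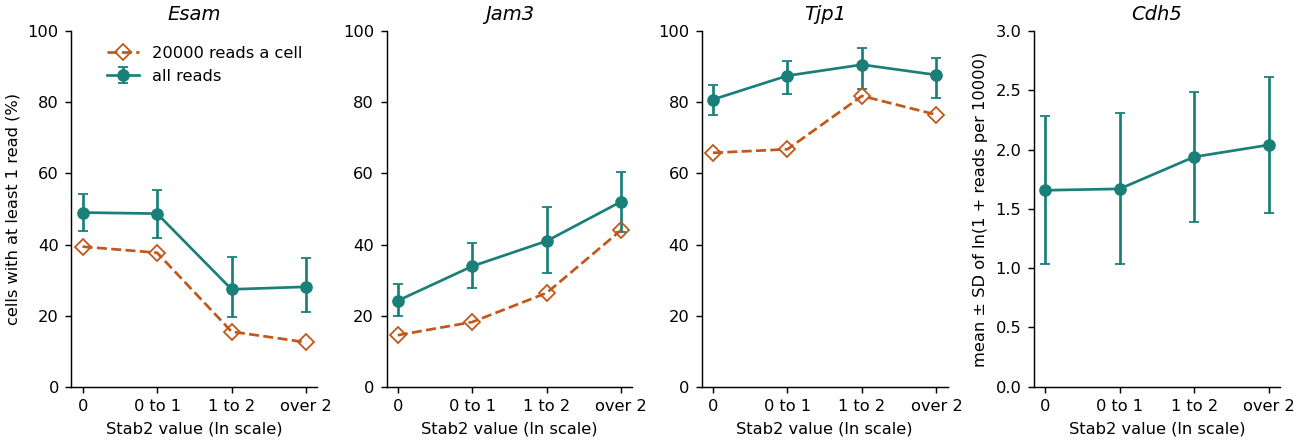
Share of cells with at least 1 read of *Esam*, *Jam3* and *Tjp1* (exact 95% intervals, all reads; open diamonds, cells thinned to 20000 reads) and mean *Cdh5* (SD over cells), by the *Stab2* value of the cell. *Esam* drops from 48.7% to 27.4% where the *Stab2* value passes 1, whereas *Jam3* is higher in each bin, from 24.2% to 52.1%.

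*Lyve1* encodes the hyaluronan receptor of initial lymphatics, and the comparison was repeated within *Lyve1* strata. *Lyve1* itself was at 11.6 reads per 10000 in *Stab2*-high and 12.7 in the other cells, a log2 ratio of −0.13. In *Lyve1*-low cells the log2 ratios were 0.56 for *Cdh5*, 0.54 for *Jam3* and −0.88 for *Esam*. In *Lyve1*-high cells they were 0.24, 0.09 and −0.52, so that only *Esam* passed the threshold in both strata, and *Tjp1* passed it in *Lyve1*-high cells alone, at 0.35. A larger share of all genes passed in *Lyve1*-low cells than in the unsplit comparison, as given below, and the difference between the strata was not tested.

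Apart from *Cldn11*, no member passed the threshold between *Cldn11*-high and other cells. *Cldn11* itself formed the group (5.50 against 0.168 reads per 10000). *Esam* was read in 55.8% of *Cldn11*-high cells (95% interval 46.8 to 64.5), against 46.9% of the other cells (43.7% and 37.2% in thinned cells). Its mean value in *Cldn11*-high cells was 0.602 ± 0.711. Reads per 10000 were 1.44 against 1.09, a log2 ratio of 0.23. *Cldn5* ran from 0.722 to 5.22 in *Cldn11*-high cells with a median of 3.53, and from 0.0758 to 4.71 in the other cells with a median of 3.44. This is 37.6 against 32.7 reads per 10000, a log2 ratio of 0.19. The ratio was 0.16 for *F11r*, 0.00 for *Tjp1*, −0.08 for *Pecam1* and −0.11 for *Cdh5*.

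Of 7 members compared, 1 was higher (*Cldn11*) and 0 lower, where 1.25% of 5836 genes were higher and 1.37% lower. The median log2 ratio was 0.16 over the 7 members, *Cldn11* included, and −0.01 over all genes, and the ratios of *Esam* and *Cldn5* lay above the 95th percentile of all genes (0.18). *Esam* missed the threshold in the main run (0.23) and in thinned cells (0.18). It passed at a *Cldn11* value above 0.5 (log2 ratio 0.37) or above 1.5 (0.51), and in cells with a Y chromosome gene and no *Xist* (0.30). At 1.5 and in those cells a larger share of all genes passed too, as given below. Of the other 6 valve markers listed, 5 were read in enough cells and none passed the threshold, so the group is named here by its rule alone. Their log2 ratio was 0.20 for *Gata2*, 0.09 for *Gja4*, 0.08 for *Nfatc1*, −0.03 for *Itga9* and −0.21 for *Gja1*, and *Foxc2* was read in under 30% of both groups. Of 5 capillary LEC genes compared, 4 were lower in *Cldn11*-high cells, namely *Lyve1* (−0.90), *Aqp1* (−0.84), *Ccl21a* (−0.57) and *Reln* (−0.49), and *Pdpn* was also lower (−0.33). Both groups were compared with the same 450 other cells, so the 2 sets of ratios are not independent.

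Set directly against each other, *Stab2*-high and *Cldn11*-high cells differed in *Cdh5* and *Esam*. Median *Cdh5* was 2.08 in *Stab2*-high and 1.68 in *Cldn11*-high cells, with 7.41 against 4.94 reads per 10000 and a log2 ratio of 0.50. *Esam* was at 0.275 against 1.44 reads per 10000, a log2 ratio of −0.94. It was read in 25.7% (20.3 to 31.7) against 55.8% (46.8 to 64.5) of the cells, and in 12.4% against 43.7% of thinned cells. These intervals cover counting error within the pool only and do not test the groups against each other. *Jam3* was read in 47.7% against 26.4% (19 to 34.8), or 35.4% against 15.1% in thinned cells, with a log2 ratio of 0.26 that missed the threshold. Apart from *Cldn11*, at −2.59 through the split itself, the other members lay between −0.13 (*Cldn5*) and 0.18 (*Tjp1*). Of 8 members compared, 1 was higher and 2 lower in *Stab2*-high cells, where 7.86% of 5978 genes were higher and 5.97% lower. One of the lower members is *Cldn11*, which formed a group, and *Esam* entered only through its share in *Cldn11*-high cells, so nothing is read from the counts.

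**Figure D4:**
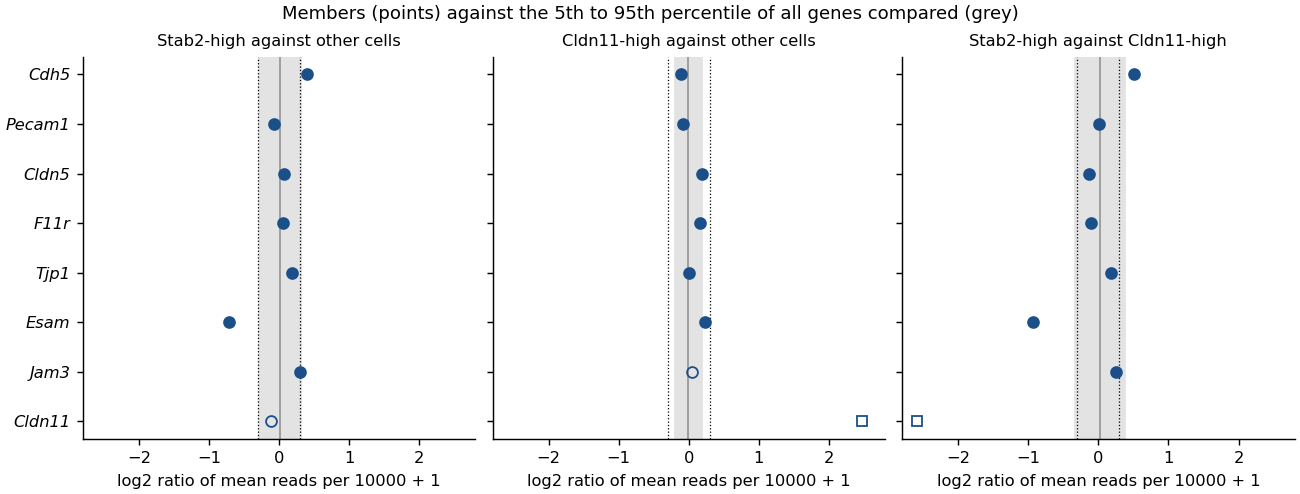
Log2 ratio of mean reads per 10000 plus 1 for 8 members in the 3 comparisons. Grey bands run from the 5th to the 95th percentile of all genes compared, the grey line is their median, dotted lines mark a log2 ratio of 0.3 either way, open circles are members read in under 30% of the cells of both groups, and squares are *Cldn11* where it formed a group. *Esam* lies outside the band at −0.71 and −0.94 in the comparisons of *Stab2*-high cells.

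The cells were also split by *Lyve1* alone, because the study relates button-like and zipper-like junctions to LYVE1 staining. In the study, strongly stained lymphatics had zipper-like, mixed and button-like junctions, and weakly stained ones had zipper-like junctions. The split here is by RNA in single cells, not by staining, so it does not show which junctions a cell had. *Esam* and *Cldn11* were lower in *Lyve1*-high cells (48.3% of all) than in *Lyve1*-low cells. Median reads per cell were 297641 in *Lyve1*-high and 376870 in *Lyve1*-low cells. *Esam* was read in 34.4% (95% interval 29.8 to 39.2) against 49.7% (44.9 to 54.5), with 0.642 against 1.14 reads per 10000 and a log2 ratio of −0.38. *Cldn11* was read in 31.9% (27.4 to 36.7) against 42.3% (37.6 to 47.1), with 0.724 against 1.40 reads per 10000 and a log2 ratio of −0.48.

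*Jam3* was read in 27.3% of *Lyve1*-high and 40.2% of *Lyve1*-low cells (17.1% and 26.9% in thinned cells). Its log2 ratio was −0.16, at 0.236 against 0.383 reads per 10000, levels at which the added 1 keeps the ratio small. The genes found in most cells stayed close together, with ratios of 0.13 for *Cdh5*, 0.07 for *F11r*, 0.04 for *Pecam1*, −0.06 for *Tjp1* and −0.10 for *Cldn5*. Of 8 members compared, 0 were higher and 2 lower, where 2.76% of 5715 genes were higher and 2.17% lower. By the difference of mean log values in place of the ratio of means, neither *Esam* nor *Cldn11* passed.

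*Gja4* encodes connexin 37, which the study used to separate the downstream from the upstream side of valves. Within *Cldn11*-high cells, 46 had a *Gja4* value above 1 and 83 did not. *Cldn5* ran from 1.55 to 5.22 in the former with a median of 3.74, and from 0.722 to 4.48 in the latter with a median of 3.5. This is 45.4 against 33.3 reads per 10000, a log2 ratio of 0.44, and the 2 distributions overlapped widely. *Pecam1* had a ratio of 0.28, with 10 against 8.07 reads per 10000.

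The other members lay between −0.11 (*Esam*) and 0.15 (*Cdh5*), leaving aside *Jam3*, *Jam2* and *Ocln*, which were read in under 30% of both groups. Of 7 members compared, 1 was higher and 0 lower, where 5.76% of 6283 genes were higher and 4.68% lower. These are small groups, and with a threshold of 0.5 for both genes the *Cldn5* ratio was 0.28.

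The genes that work with these members were read from 4 lists. Of the partners of the cadherin, *Ctnna1* (alpha-catenin) was read in 99.5% of the cells and *Ctnnb1* (beta-catenin) in 97.6%. *Jup* (plakoglobin) was read in 97.1% and *Ptprb* (the phosphatase VE-PTP) in 93.5%. Other genes of the adherens junction list ranged lower. In *Stab2*-high and other cells, *Nectin2* was at 5.50 and 4.68 reads per 10000 and *Afdn* at 1.27 and 0.87. *Vcl* was at 0.66 and 0.40, *Ctnnd1* at 0.24 and 0.22, *Nectin3* at 0.15 and 0.16, and *Nectin1* at 0.0632 and 0.0597. In *Stab2*-high against other cells, where 5.45% of all genes were higher and 4.68% lower, the 4 lists gave 2 higher and 3 lower of 29 genes compared. Among 9 adherens junction partners 0 were higher and 1 lower, namely *Cdh13* (T-cadherin, which is anchored in the membrane without a cytoplasmic tail) at a log2 ratio of −1.09. *Cdh13* was read in 44% of *Stab2*-high cells (95% interval 37.6 to 50.5), 72% of the other cells (67.6 to 76.1) and 84.5% of *Cldn11*-high cells (77.1 to 90.3), and it was higher in the last group than in the other cells, at 0.48.

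Among 6 tight junction scaffold genes compared, 1 was higher in *Stab2*-high cells, *Magi1* at 0.33, and 0 were lower. Among 5 genes of other surface adhesion molecules, 1 was lower, *Bcam* (a laminin receptor) at −0.59. Among 9 junction regulators, *Tek* (the angiopoietin receptor TIE2) was lower at −0.74 and *Ccm2l* (a CCM2-like adaptor) higher at 0.35. With so few genes a list, these counts are not set apart from those shares. In *Cldn11*-high against other cells (1.25% of all genes higher, 1.37% lower), *Cdh13* was the 1 gene of the 4 lists to pass the threshold.

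Between *Stab2*-high and *Cldn11*-high cells the ratio was −1.57 for *Cdh13*, −0.83 for *Bcam*, −0.59 for *Tek*, 0.46 for *Nectin2*, 0.44 for *Ccm2l*, 0.32 for *Vcl* (vinculin) and 0.30 for *Magi1*. Between *Lyve1*-high and *Lyve1*-low cells it was −0.96 for *Bcam*, −0.47 for *Cdh13*, −0.35 for *Tek*, 0.33 for *Nectin2* (a nectin of adherens junctions) and 0.30 for *Ctnna1*. In the *Gja4* split it was −0.40 for *Icam1*, 0.37 for *Jup* and 0.31 for *Icam2*. Beta-catenin and plakoglobin passed in no comparison of *Stab2*-high cells, with ratios of −0.27 and −0.22 against the other cells, while *Cdh5* was higher there.

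**Figure D5:**
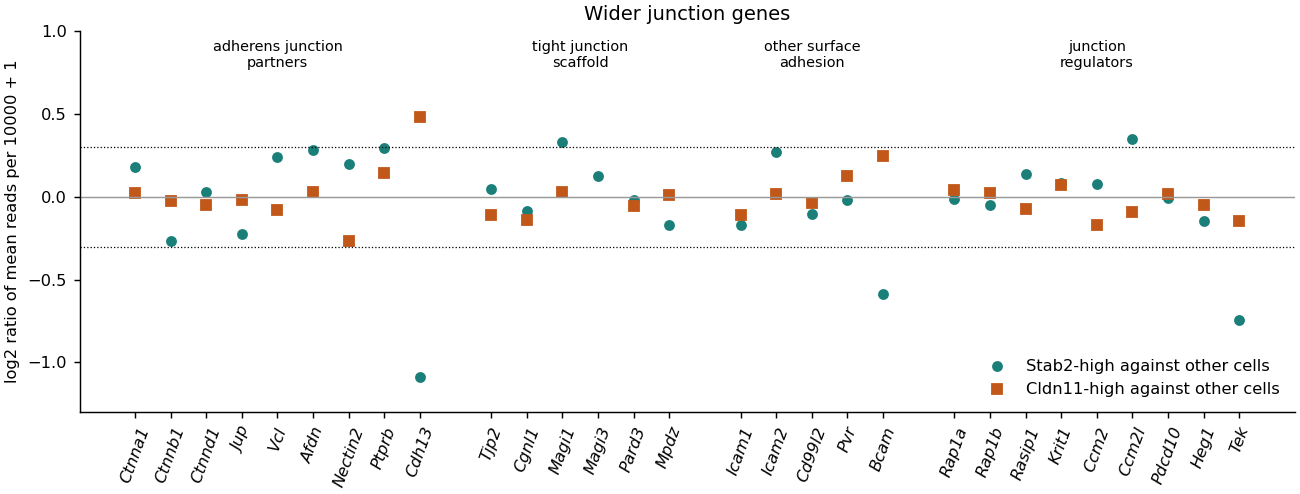
Log2 ratio of mean reads per 10000 plus 1 for the genes of 4 wider junction lists, in *Stab2*-high (circles) and *Cldn11*-high cells (squares) against the same 450 other cells. Dotted lines mark 0.3 either way, a gene is drawn only where it was read in at least 30% of the cells of either group, and *Cdh13* lies at −1.09 and 0.48.

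Over single cells the members were weakly correlated with one another. Among pairs of the 8 members read in at least 10% of the cells, Pearson's r of the log values over all cells of the pool ran from −0.11 (*Pecam1* with *Tjp1*) to 0.20 (*Cldn11* with *Esam*). In thinned cells these 2 values were −0.06 and 0.14, and the highest was 0.20 for *Cldn5* with *F11r*. All cells share the pool and differ in depth, and in sparse counts weak correlations carry little weight. Each member was also compared with 5433 genes, the other members among them. The highest r of such a search cannot lie below that of the best member pair, so nothing is read from its size. It was 0.34 for *Cldn11* with *Slc41a1*, 0.31 for *Jam3* with *Tmem176b*, 0.30 for *Cdh5* with *Gm525* and 0.29 for *Cldn5* with *Bsg*. For the rest it was 0.28 for *Esam* with *Vim*, 0.23 for *Pecam1* with *Fxyd6*, 0.20 for *F11r* with *Actg1* and 0.14 for *Tjp1* with *Gm12940*. In thinned cells *Tjp1* with *Gm12940* was at 0.09, below *Tjp1* with *Pim3* at 0.12. *Cdh5* was next closest to *Aqp1* (0.29) and *Eng* (0.28), *Jam3* to *Tmem176a* (0.28) and *Stab2* (0.27), *Esam* to *Cav1* (0.26) and *Serpine2* (0.25), and *Cldn11* to *Plat* (0.27) and *Nts* (0.26).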

How the data were processed

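Reads of adult cells were aligned by the authors to mm10 with STAR and counted per gene with featureCounts, and a cell needed at least 2000 genes and at most 10% mitochondrial reads to be kept. With Seurat 4.1.0 the authors then deposited normalized values. The methods name a log2 step, but the exponential of each deposited value minus 1 summed to 10000 in every cell. The deposited unit is therefore a natural log, ln(1 + reads per 10000), and 100% of the values above 0 gave whole reads within 0.01. Strand, multi-mapping and annotation are not given in the sources used here. Aged cells were not analysed here. The adult matrix has 842 cells from 1536 wells listed: 241 *Stab2*-high, 129 *Cldn11*-high, 22 with both, 450 other, 407 *Lyve1*-high and 435 *Lyve1*-low. The 4 *Stab2* bins hold 355, 224, 117 and 146 cells, and 791 cells were thinned.

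Means of reads per 10000 were compared as log2 ratios with a pseudocount of 1, a threshold of 0.3 and a minimum share of 30%, after the marker search of the study. No test was made with 1 pool. Lengths came from GENCODE M21 (95.9% of symbols matched to 1 gene). The rule named all 10 members, the genes that define splits, LEC identity genes, claudins read in 5% of cells, up to 5 genes of the 4 junction lists per comparison and the 3 genes most alike each member. Members and lists were chosen with earlier results of these data known. The *Stab2* bins, the immediate-early genes, the 4 genes counted together, the strata by *Lyve1* and sex genes and the removal of 3 wells were chosen after seeing the data. The steps were tested on simulated data. Only genes with a mean of at least 1 read per 10000 were changed there, so the lower means of *Esam* and *Jam3* were not covered. Python 3.11.15, NumPy 2.4.6, pandas 2.3.3, SciPy 1.17.1 and matplotlib 3.10.9 were used.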

Additional observations from a re-analysis of the deposited data

How the results depend on the processing

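No member called above changed direction under any alternative run. Of all genes compared, 10.1% passed the threshold between *Stab2*-high and other cells, and 31.4% with a pseudocount of 0.1, 2.74% without the filter on low genes (which adds genes at or near 0), 16.6% in cells with *Xist* and no Y chromosome gene and 16.7% in *Lyve1*-low cells. *Jam3* lost its call at a threshold of 0.5 (log2 ratio 0.29), by the difference of mean log values (0.24), in cells with *Xist* only (0.24) and in *Lyve1*-high cells. *Cdh5* lost its call in *Lyve1*-high cells as well. For *Cldn11*-high against other cells 2.62% passed, and 5.89% at a threshold of 1.5, 4.49% after thinning, 21% with a pseudocount of 0.1, 1.42% by mean log values, 0.807% without the filter, and 17.6% and 5.3% in cells with *Xist* only and with a Y chromosome gene only. There, 2 members passed instead of 1 at thresholds of 0.5 and 1.5, with a pseudocount of 0.1 and in cells with a Y chromosome gene only. *Stab2*-high against *Cldn11*-high gave 13.8%, and 42.4% with a pseudocount of 0.1 and 3.89% without the filter. The *Lyve1* split gave 4.93% and 2 members, against 7.6% after thinning, 19.9% with a pseudocount of 0.1, 1.37% without the filter and 0 members by mean log values. The *Gja4* split gave 10.4% and 1 member, against 6.79% and 0 members at a threshold of 0.5, 29.2% and 2 members at 1.5, 16.5% and 2 members after thinning, 44% and 2 members with a pseudocount of 0.1, 4.6% by mean log values and 3.22% without the filter. The causes were not tested beyond what a setting itself changes. Shares of cells with *Esam*, *Jam3*, *Jam2* and *Ocln* depend on depth. Leaving out replicates could not be done with 1 pool. No paired analysis was possible because the cells are 1 pooled sample.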

Other observations

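*Esam* and *Jam3* differed in opposite directions between *Stab2*-high and other cells, and their reads within the same single cells were also counted. No test was made on these shares, and intervals that overlap do not show that shares are alike. At 20000 reads a cell, *Jam3* was read in 21.2% of cells with *Esam* (exact 95% interval 16.3 to 26.9) and in 22.7% of cells without it (19.3 to 26.5). Within *Stab2*-high cells the shares were 32.1% of 28 cells with *Esam* (15.9 to 52.4) and 35.9% of cells without *Esam* (29.2 to 43), within the other cells 18.6% (12.8 to 25.6) and 14.8% (10.8 to 19.7), and within *Cldn11*-high cells 20% (10.4 to 33) and 11.3% (4.99 to 21). Over all cells *Cldn11* was read in 33.5% of cells with *Esam* (27.6 to 39.8) and 25.1% of cells without it (21.5 to 28.9). Pearson's r of this pair was 0.20 over all cells and 0.14 in thinned cells. In the other cells, with *Cldn11* at most 1, the shares were 12.8% (8.01 to 19.1) and 14.1% (10.1 to 18.9).

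The 22 cells with both *Stab2* and *Cldn11* above 1 entered neither the *Stab2* nor the *Cldn11* comparisons, but are part of the *Lyve1* split and the *Stab2* bins. Their mean *Cdh5* was 2.07 ± 0.459 and their mean *Jam3* 0.456 ± 0.604. *Esam* was read in 11 of 22 cells (50%, exact 95% interval 28.2 to 71.8) and *Tjp1* in 17 (77.3%, 54.6 to 92.2).

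The sole *Jam2* value above 1 in the matrix, 1.85, belonged to a *Cldn11*-high cell, in which 1 of the 5 fibroblast markers was found, at 0.0235 reads per 10000.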
